A study of Danio rerio with 2 samples.

Results

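The genes described here belong to the Notch pathway and were taken by name from the gene list of the deposited count tables. The receptors were the names that begin with notch, and the ligands were the names that begin with jag together with dla, dlb, dlc, dld and dll4. The fringes were lfng, mfng and rfng, and the transcriptional repressors were the names that begin with hey or with her and a digit. The rule took 39 of 15411 genes. Of these, 2 are jagunal genes (jagn1a and jagn1b), which share only their first letters with the Jagged ligands, so 37 Notch pathway genes remained: 4 receptors, 5 Delta ligands, 3 Jagged ligands, 3 fringes and 22 her or hey genes.

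The fin folds came from zebrafish larvae whose caudal fin fold was amputated at 3 days post fertilization (dpf) and collected 24 h post-amputation (hpA), called cut, and from intact larvae of the same age, called uncut. About 150 fin folds were pooled for each library, and no transgene or drug is named for either one, although which fish line was dissociated is not given in the sources used here. Cells were captured in droplets with the 10x Genomics 3′ chemistry, which counts unique molecular identifiers (UMIs), 1 for each captured transcript molecule. There were 762 cut cells, at a median depth of 7699.5 UMIs, and 878 uncut cells, at 10476.5, and the libraries shared 0 barcodes. With 1 library per condition there was no replicate, cells are not replicates, and no test between cut and uncut was possible. Levels are therefore given as UMIs of a gene per 1000000 UMIs of all genes in the same cells (counts per 1000000, CPM), with 95% intervals that cover counting error only.

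Notch receptors sit in the cell membrane and are cut when a Delta or Jagged ligand on a neighbouring cell binds them. The freed inner part enters the nucleus, joins the DNA-binding protein Rbpj and switches on repressors of the her and hey families, while fringe enzymes add sugars to the receptor and change which ligand it answers. In the lateral line of fish, Notch signalling is best known from the neuromasts, small sensory organs in the skin in which it keeps support cells from becoming hair cells.

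Of the 37 genes, 35 had at least 1 UMI, and her3 and her5 had 0. The genes with at least 30 UMIs over both libraries numbered 19 and are described one by one, and 16 genes had from 1 to 25 UMIs. All Notch pathway genes together had 1608 UMIs in the cut and 3365 UMIs in the uncut library, and at least 1 of them was found in 485 cut and 679 uncut cells. Several of the her genes lie side by side in the genome. In the RefSeq gene order of assembly GRCz12tu, her12, her4.1, her4.2, her4.3, her4.4 and her4.5 are 6 neighbours, and her2, her15.1 and her15.2 are 3 neighbours. How alike their sequences are was not measured. The split of reads between the her4 copies and between the her15 copies is uncertain. These copies are therefore also given as a sum, together with their neighbours her12 and her2.

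Cell groups came from 20 clusters made without the Notch pathway genes and were named only from marker genes. Of the named groups, the largest were superficial epidermis-like (570 cells), mesenchyme-like (352 cells) and apical epithelial cap-like (154 cells). They were followed by neuromast-like (59 cells), myeloid-like (48), basal epidermis-like (24), erythrocyte-like (18) and muscle-like (12). Another 5 clusters stayed unnamed. The largest of these had 189 cells and made up 19.0% of the cut and 5.01% of the uncut library. Of 12 superficial epidermis markers, 6 were raised in it, but a further naming condition, given with the processing, left it unnamed. Mesenchyme-like cells made up 11.8% of the cut and 29.8% of the uncut library, and apical epithelial cap-like cells 5.25% and 12.98%. The neuromast-like cells made up 3.02% of the cut library (23 cells, 95% interval 1.92 to 4.495%) and 4.1% of the uncut library (36 cells, 2.89 to 5.63%).

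The name neuromast-like was given from a list of markers of support and mantle cells, so the levels of these markers are not a separate check of it. Of 126 cells with 3 or more neuromast markers, 45 were in this group. The neuromast-like cells held all 19 UMIs of hmx2 and 179 of 185 UMIs of hmx3a, both lateral line homeobox genes, and 103 of 155 UMIs of sox2, a progenitor factor. Other genes of the same list were not there or mostly elsewhere: six1a had 0 of its 246 UMIs in these cells, fgf3 2 of 34 and fgf10a 12 of 149. Of the hair cell markers, pou4f3 and gfi1ab were at 0 and myo7aa had 3 UMIs in these cells, while pvalb8 had 465 of its 816 UMIs there. The group was not uniform. All 8 neuron markers found anywhere had UMIs in it, 240 in all. Of 12 neural crest, glia and pigment markers, 4 had UMIs in it, 37 in all. The study lists hmx3a and irg1l as markers of a cluster that it calls neurons and glia, and the overlap with that cluster was not tested. In 10 of the 59 cells no neuromast marker was found, and at a finer clustering 15 of the 59 cells joined a neuron-like group. Its values are given separately for some comparisons below, and the other comparisons include its cells.

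Notch pathway genes were concentrated in the neuromast-like cells. Summed over all members, the level was 2069.5 CPM in the neuromast-like cells and 230.6 in all other cells, and the neuromast-like level was close in both libraries (2045 in cut, 2081 in uncut). Of the 19 genes, 14 reached their highest level among all cell groups in the neuromast-like cells. The exceptions were notch2 and rfng in basal epidermis-like cells, dll4 in mesenchyme-like cells, mfng in myeloid-like cells and notch1b in an unnamed cluster of cycling cells. The same count over all genes was not made, so the 14 have no background. Some named groups pool several clusters. By single cluster, her9 was higher in an apical epithelial cap-like one (153 against 122 CPM) and lfng in a mesenchyme-like one (50.1 against 47.0). Without the top cell of each gene, dlc and jag2b were highest in basal epidermis-like cells.

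**Figure D1:**
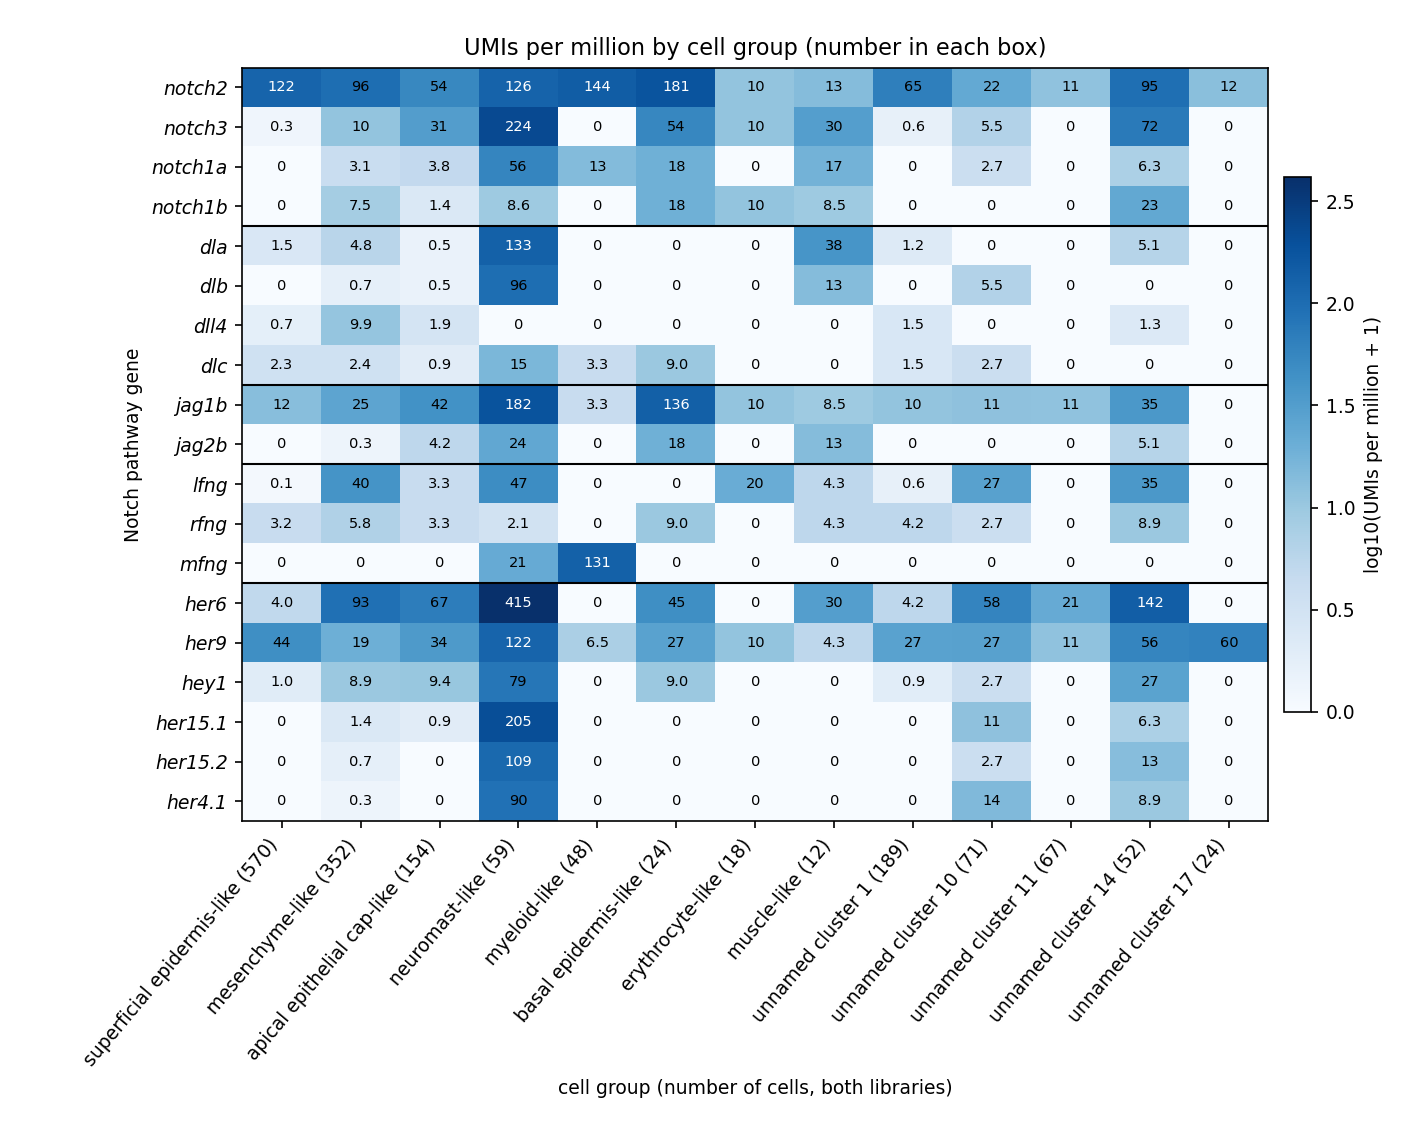
Level of the 19 Notch pathway genes with at least 30 UMIs (vertical axis, grouped by role) in each cell group (horizontal axis, number of cells in brackets), with the CPM printed in each box and shown as colour on a log10(value + 1) scale. The neuromast-like column is the darkest for 14 of the 19 genes, while notch2 and her9 are spread over many groups.

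Among the receptors, notch2 had the most UMIs and was the most widely spread. It stood at 88.8 CPM in the cut and 95.9 in the uncut library. By group its level was 181 in basal epidermis-like (95% interval 110 to 280), 144 in myeloid-like, 126 in neuromast-like and 122 in superficial epidermis-like cells (114 to 131). The intervals of these 4 groups overlap, so their order is not resolved. The level in mesenchyme-like cells (95.5, 84.7 to 107) overlaps with that in neuromast-like (96.0 to 163) and myeloid-like cells (105 to 193), and the level in apical epithelial cap-like cells was 53.8 (44.4 to 64.6), below all of these. A notch2 UMI was found in 70.5% of superficial epidermis-like and in 45.8% of neuromast-like cells, but the former had a median of 10357 UMIs per cell against 4959, and after thinning every cell to 2000 UMIs the shares were 24.0% and 24.6%.

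The receptor notch3 had the opposite distribution. Its level was 224 CPM in neuromast-like cells (95% interval 184 to 272), 72.1 in the cycling cluster, 54.3 in basal epidermis-like, 30.7 in apical epithelial cap-like and 10.2 in mesenchyme-like cells. The superficial epidermis-like cells, the most numerous and deeper group, had 2 UMIs of notch3 in all, or 0.293 CPM. A notch3 UMI was found in 27 of 59 neuromast-like cells (45.8%) and in 0.351% of superficial epidermis-like cells, and at 2000 UMIs per cell in 29.8% and 0%. The notch1 copies were rarer. Of the UMIs of notch1a, 44.1% lay in neuromast-like cells, where its level was 55.6, and the next 3 groups by level (basal epidermis-like, muscle-like and myeloid-like) had no more than 4 UMIs each. The other copy, notch1b, was highest in the cycling cluster (22.8 CPM, 18 UMIs in 14 cells), with 22 UMIs in mesenchyme-like and 4 in neuromast-like cells.

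The Delta ligands dla and dlb were found in few cells, dla in 31 (10 of them neuromast-like) and dlb in 14 (7 of them neuromast-like), but most of their UMIs were in the neuromast-like cells. These held 59.6% of the UMIs of dla and 84.9% of those of dlb, although they held only 2.62% of all UMIs. The level of dla was 133 CPM in neuromast-like cells and 38.4 in muscle-like cells (9 UMIs in 3 cells), and the level of dlb was 96.2 and 12.8 (3 UMIs). In the 12 muscle-like cells a Delta ligand was found in 6. Another Delta gene, dlc, had 17.5% of its UMIs in neuromast-like cells, and dld had 25 UMIs in all, of which 12 came from 1 neuromast-like cell.

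The ligand dll4, known from growing blood vessels, was not found in neuromast-like cells. Its 44 UMIs lay in 29 cells, of which 15 were mesenchyme-like and held 29 UMIs, or 9.89 CPM in that group. The mesenchyme-like UMIs were almost all in 1 of the mesenchyme-like clusters, with 28 UMIs in 14 cells. No cluster was named from endothelium markers. Of the 10 such markers, cdh5, pecam1 and lyve1b were at 0 in both libraries and 7 had UMIs. In mesenchyme-like cells 5 of them had UMIs, 116 in all. The marker kdrl was found in 2 cells, neither with dll4. Of the 29 dll4 cells, 4 had a UMI of kdrl, fli1a, egfl7 or cldn5b.

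The Jagged ligand jag1b was more broadly spread than the Delta ligands. It stood at 182 CPM in neuromast-like cells (95% interval 145 to 225) and 136 in basal epidermis-like cells (76.0 to 224), intervals that overlap, and at 41.5 in apical epithelial cap-like, 24.9 in mesenchyme-like and 12.3 in superficial epidermis-like cells. A UMI of jag1b was found in 49.2% of neuromast-like and 11.6% of superficial epidermis-like cells, and at 2000 UMIs per cell in 24.6% and 1.97%. Its paralogue jag2b had 30 UMIs, 11 of them in neuromast-like cells, and jag1a had 18 UMIs in all.

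The fringes differed from each other in the cells that held them. Lunatic fringe, lfng, had 61.8% of its UMIs in mesenchyme-like cells, at 40.3 CPM (95% interval 33.3 to 48.2), and reached a like level in neuromast-like cells (47.0, 29.5 to 71.2) and in the cycling cluster (35.4). In superficial epidermis-like cells it was at 0.146. Manic fringe, mfng, was found in only 26 cells, 20 of them myeloid-like and 6 neuromast-like. Its level was 131 CPM in myeloid-like cells (40 of 50 UMIs), and the other 10 UMIs came from uncut neuromast-like cells. Radical fringe, rfng, was thinly spread, and its highest value, in basal epidermis-like cells, rests on 1 UMI.

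The repressor genes differed in how narrowly they were placed. The narrow set was her4.1, her15.1 and her15.2, classical targets of Notch in the nervous system, of whose UMIs 76.4%, 86.5% and 79.7% came from neuromast-like cells. Their levels there were 89.8, 205 and 109 CPM. No superficial epidermis-like cell had a UMI of any her4 copy, her15 copy, her12 or her2 (0 of 570 cells, which allows a share of cells with a UMI of up to 0.526%, taking 3 cells as the limit), against 24 of 59 neuromast-like cells (40.7%, 95% interval 28.1 to 54.3%). Thinned to 2000 UMIs per cell, the share of neuromast-like cells was 26.3%. As a sum these genes stood at 481 CPM in neuromast-like and 3.86 in all other cells.

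Less narrowly placed were her6, her9 and hey1, of whose UMIs 24.3%, 8.84% and 31.9% came from neuromast-like cells. A UMI of her6, the fish counterpart of mammalian Hes1, was found in 47.5% of neuromast-like and 3.16% of superficial epidermis-like cells. Its level was 415 CPM in neuromast-like cells (95% interval 358 to 477), 142 in the cycling cluster, 93.1 in mesenchyme-like (82.4 to 105) and 67.0 in apical epithelial cap-like cells, and 3.95 in superficial epidermis-like cells. The mesenchyme-like clusters were unlike each other, with 116 CPM of her6 in 48.7% of the cells of one and 31.8 in 2.11% of the cells of another. For hey1, a repressor known from blood vessels and heart, the level was 79.1 in neuromast-like cells, 26.6 in the cycling cluster and below 10 in every other group.

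The distribution of her9 was unlike that of the other repressors. Superficial epidermis-like cells held 47.1% of its UMIs at 44.5 CPM, and the neuromast-like level was 122 (95% interval 92.3 to 158). The share of cells with a her9 UMI was 23.7% in neuromast-like and 24.6% in superficial epidermis-like cells, and 17.5% and 6.44% at 2000 UMIs per cell. Within the apical epithelial cap-like cells it was unevenly placed, at 153 CPM in one cluster (52.8% of cells) and 12.8 in the other (10.2%).

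The remaining repressors were near the limit of detection. Of the 21 UMIs of her12, 15 came from 4 neuromast-like cells. The others had at most 15 UMIs: her8a had 15, her2 had 13 (9 of them in 1 cell), her4.3 had 11, her4.2 and her4.5 had 7 each, hey2 had 5, her1, her13, heyl and her4.4 had 3 each, and her7, her11 and her8.2 had 1 each. At this depth no cell group can be assigned to them.

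The concentration in neuromast-like cells was then measured in each library on its own. A gene was counted when its level in neuromast-like cells was at least 4-fold that in all other cells in both libraries. This held for 11 of the 19 Notch pathway genes (notch1a, notch3, dla, jag1b, jag2b, lfng, her4.1, her6, her15.1, her15.2 and hey1), against 5.31% of all 9370 genes with at least 30 UMIs. The minimum of 30 UMIs included the UMIs of the neuromast-like cells, and without these cells 14 of the 19 genes reached it. Of the counted genes, her4.1, her15.1, her15.2 and jag2b did not. They were tested only because of the cells in which they are high, so their calls were partly set by the filter. The call of lfng rests on 3 cut UMIs (4.47-fold, 95% interval 0.876 to 14.2) and was lost under 6 of the 9 alternatives. Under the other cell definitions and counting choices tried at the 4-fold limit, the count was between 9 and 12 of 18 or 19 genes (background 3.32% to 5.41%). At a 2-fold limit it was 13 of 19 (background 17.4%).

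**Figure D2:**
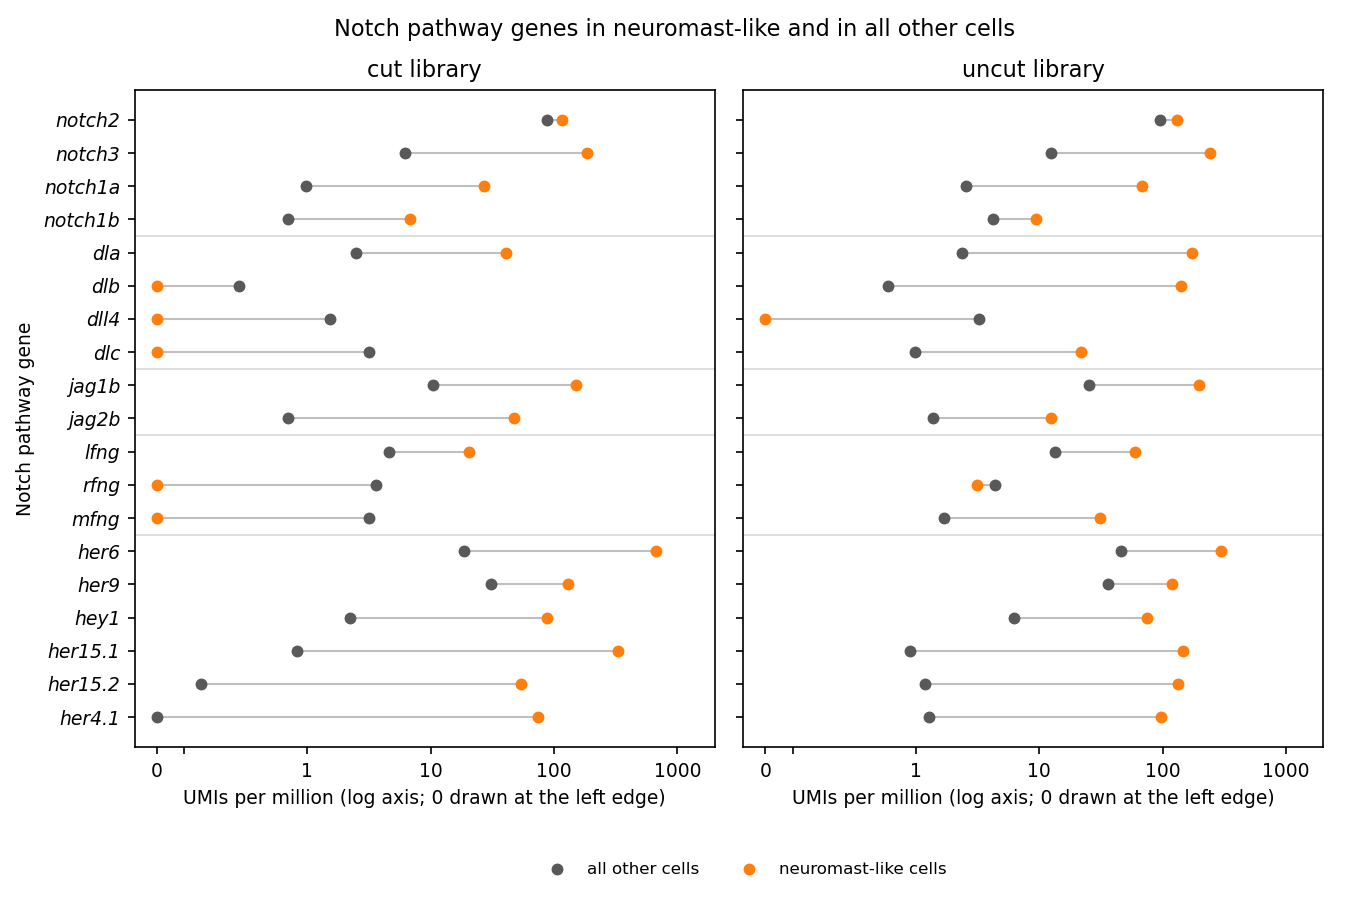
CPM (log axis, with 0 drawn at the left edge) of the 19 Notch pathway genes in neuromast-like cells (orange) and in all other cells (grey), in the cut library (left) and the uncut library (right). The 11 genes that were at least 4-fold higher in both libraries include notch3, dla, jag1b and her15.1, while the points of notch2 lie close together. In neuromast-like cells dlb, dlc, mfng and rfng are at 0 in the cut library only, and rfng has 1 UMI in the uncut library.

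The receptors again separated. In the cut library notch3 stood at 183 CPM in neuromast-like and 6.22 in other cells, 29.5-fold higher (95% interval 17.6 to 48.5), and in the uncut library at 243 and 12.5, 19.4-fold higher (14.5 to 26.0). For notch1a the values were 27.2 and 0.968 in cut and 68.6 and 2.57 in uncut. The level of notch2 was close to that of other cells, 1.31-fold in cut (0.758 to 2.11) and 1.38-fold in uncut (0.990 to 1.88). In both libraries notch3 and notch1a thus passed the 4-fold limit and notch2 did not.

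Among the ligands, jag1b stood at 149 CPM in cut neuromast-like cells and 10.5 in other cut cells, 14.2-fold higher, and at 197 and 25.3 in uncut, 7.78-fold higher. The values of dla were 40.8 and 2.49 in cut and 175 and 2.37 in uncut, so the cells outside the neuromast-like group had like levels in both libraries and the neuromast-like cells did not. For dlb the uncut values were 140 and 0.592, and the cut neuromast-like cells had none. The level of jag2b was 47.6 against 0.692 in cut and 12.5 against 1.38 in uncut, from 7 and 4 neuromast-like UMIs.

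Among the targets, her4.1, her15.1 and her15.2 gave wider gaps than her6 and hey1, but this order was partly set by the filter. The former reached the minimum count only with their neuromast-like UMIs, so only a wide gap could bring them in. Both her6 and hey1 reached it without these UMIs. The level of her15.1 was 333 CPM in cut neuromast-like cells and 0.830 in other cut cells, 401-fold higher, and 147 and 0.888 in uncut, 165-fold higher. In the cut library all 11 UMIs of her4.1 were in neuromast-like cells, a level at least 180-fold higher than in other cells (counted as 3 UMIs), and in the uncut library 31 of 44 were. For her6 the levels were 666 and 18.5 in cut and 300 and 46.5 in uncut, and for hey1 they were 88.3 and 2.21 in cut and 74.9 and 6.21 in uncut. The broadly spread her9 was 4.17-fold higher in cut and 3.30-fold higher in uncut and so was not counted.

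Not all of the 59 cells took part. At the finer clustering, 48 cells were named neuromast-like (44 of them among the 59), and they held all of the neuromast-like UMIs of notch3 (105), her6 (194), her15.1 (96), her15.2 (51), her4.1 (42) and hey1 (37). The 15 neuron-like cells among the 59 had 0 UMIs of these genes. They were 6 cut and 9 uncut cells, and neurod1, a neuronal differentiation factor, was found in 3 of them and elavl3, a neuronal RNA-binding protein, in 3. The Delta ligands were found on both sides: dla had 53 UMIs in 8 cells and dlb 34 in 6 of the 48 cells, and the 15 neuron-like cells had 9 UMIs of dla in 2 cells and 11 of dlb in 1 cell. At this finer clustering dla, dlb and dlc had their highest level in the neuron-like group, on these few UMIs, and the count of genes highest in neuromast-like cells was 9 in place of 14.

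Receptor, ligand and target were often found in the same neuromast-like cells. Both notch3 and jag1b were found in 22 cells, of 27 with notch3 and 29 with jag1b. Both her4.1 and her15.1 were found in 11 cells, of 12 and 18. Of the 10 cells with dla, 7 also had a UMI of a her4, her15, her12 or her2 gene. These cells were deeper than the rest, with a median of 8184 UMIs for cells with both notch3 and jag1b and 13143 for cells with both her4.1 and her15.1, against 4959 for all 59, and depth alone raises the chance of finding a pair. Its part in the overlaps was not tested.

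**Figure D3:**
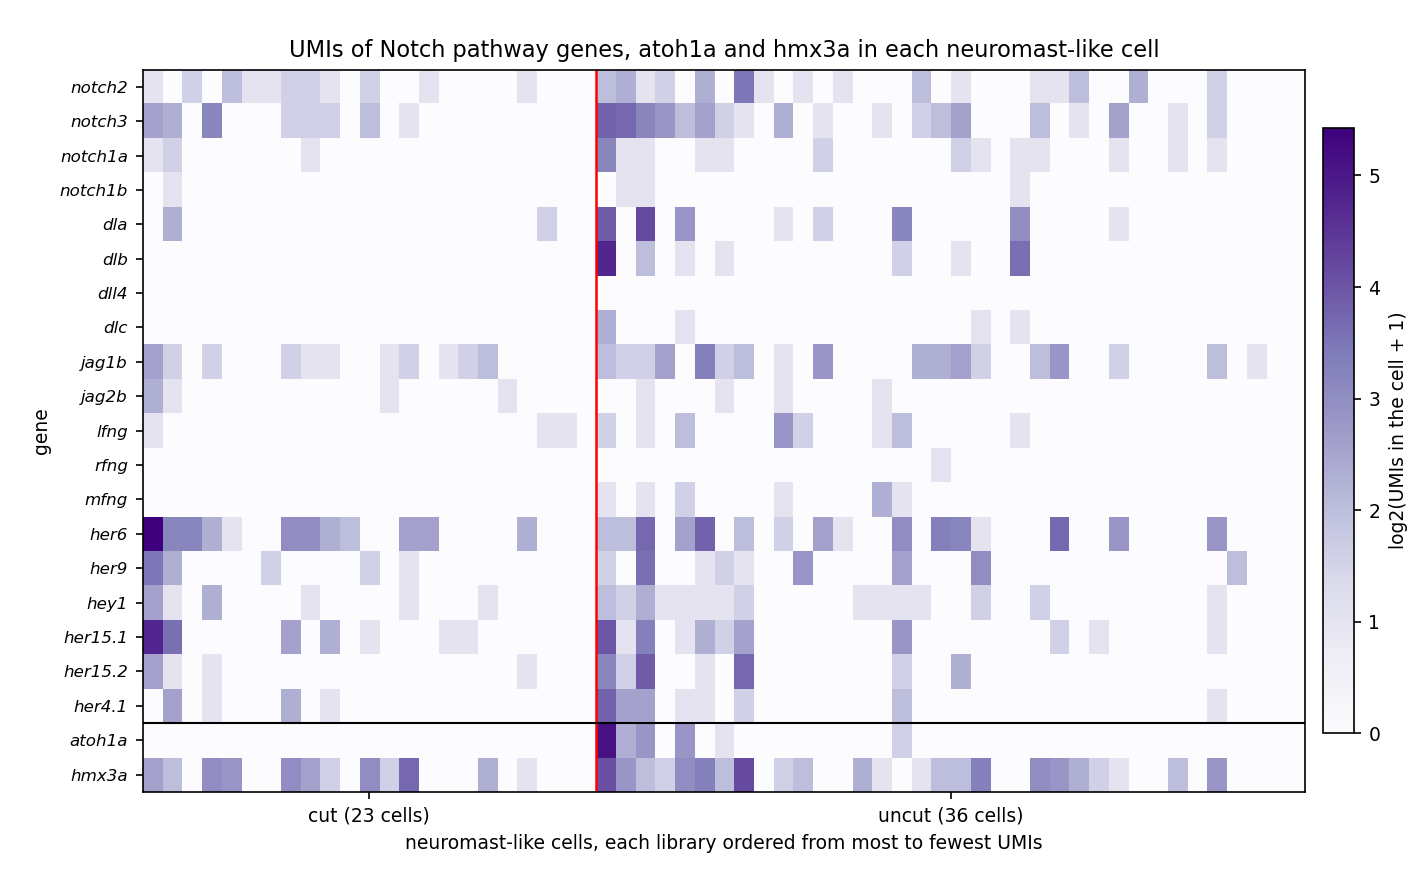
UMIs of each Notch pathway gene, and of atoh1a and hmx3a, in every neuromast-like cell (columns, each library ordered from most to fewest UMIs, red line between the 23 cut and 36 uncut cells), coloured by log2(UMIs + 1). The target genes and notch3 are mostly in the deeper cells of both libraries, and dlb and atoh1a are in uncut cells only.

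The Delta ligands were set beside atoh1a, the transcription factor that starts hair cell formation. In the neuromast-like group atoh1a was found in 6 cells, all uncut. These cells held dlb in 5 of 6 cases, of 7 dlb cells in the group, and dla in 4 of 6, of 10 dla cells. The level of dla was 312 CPM in cells with atoh1a and 52.5 in those without, and that of dlb was 229 and 37.1. The direction was the opposite for her6 (208 with atoh1a and 507 without, a gap that narrows to 313 and 507 without the deepest cell) and jag1b (62.5 and 235), and notch3 was at like levels (264 and 207). The cells without atoh1a were 23 cut and 30 uncut cells, the neuron-like cells of the finer clustering among them. Of their 12 dlb UMIs, 11 came from 1 neuron-like cell. In the 30 of them with hmx2 or hmx3a (12 cut and 18 uncut), dla stood at 27.6 CPM and dlb at 4.60. In these 30 cells her6 stood at 653, jag1b at 303 and notch3 at 303.

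The cells with atoh1a were also the deeper ones, with 6676 to 57872 UMIs and a median of 18220 against 4939 for the others. Among cells without atoh1a that had at least 6000 UMIs, dla stood at 37.2 CPM, dlb at 0, her6 at 510 and jag1b at 218. For dla, dlb and jag1b the differences kept their direction against these cells of more like depth. However, 7 of these 19 cells were cut, while all cells with atoh1a were uncut. For her6, 1 cut cell held 42 of the 96 UMIs of the 19 cells. Over all uncut neuromast-like cells, with and without atoh1a, her6 stood at 300 CPM, or 354 without the deepest cell. The uncut cells with and without atoh1a were not compared on their own. The parts of atoh1a and of library in the her6 difference were therefore not tested. The targets did not separate from the ligand: her15.1 and hey1 were each found in 6 of 6 atoh1a cells and her4.1 in 5 of 6. The deepest atoh1a cell, an uncut cell with 57872 UMIs, held 26 of the 45 dlb UMIs, 14 of the 62 dla UMIs, all 12 neuromast-like dld UMIs and 34 atoh1a UMIs. It also had 33 UMIs of mki67, a gene of dividing cells, and 11.7 times the median depth of the group. Without it the level of dlb in atoh1a cells was 81.2. Whether it is 1 cell or more than 1 was not tested.

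Over all cells, most Notch pathway genes were lower in the cut library. A gene was counted when its level differed at least 2-fold. At least 2-fold lower in cut were 11 of 19 Notch pathway genes, against 8.64% of all 9370 genes, and at least 2-fold higher were 0 of 19, against 2.99%. The median log2 ratio of cut over uncut was -1.08 for the 19 genes and 0.04 for all genes.

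**Figure D4:**
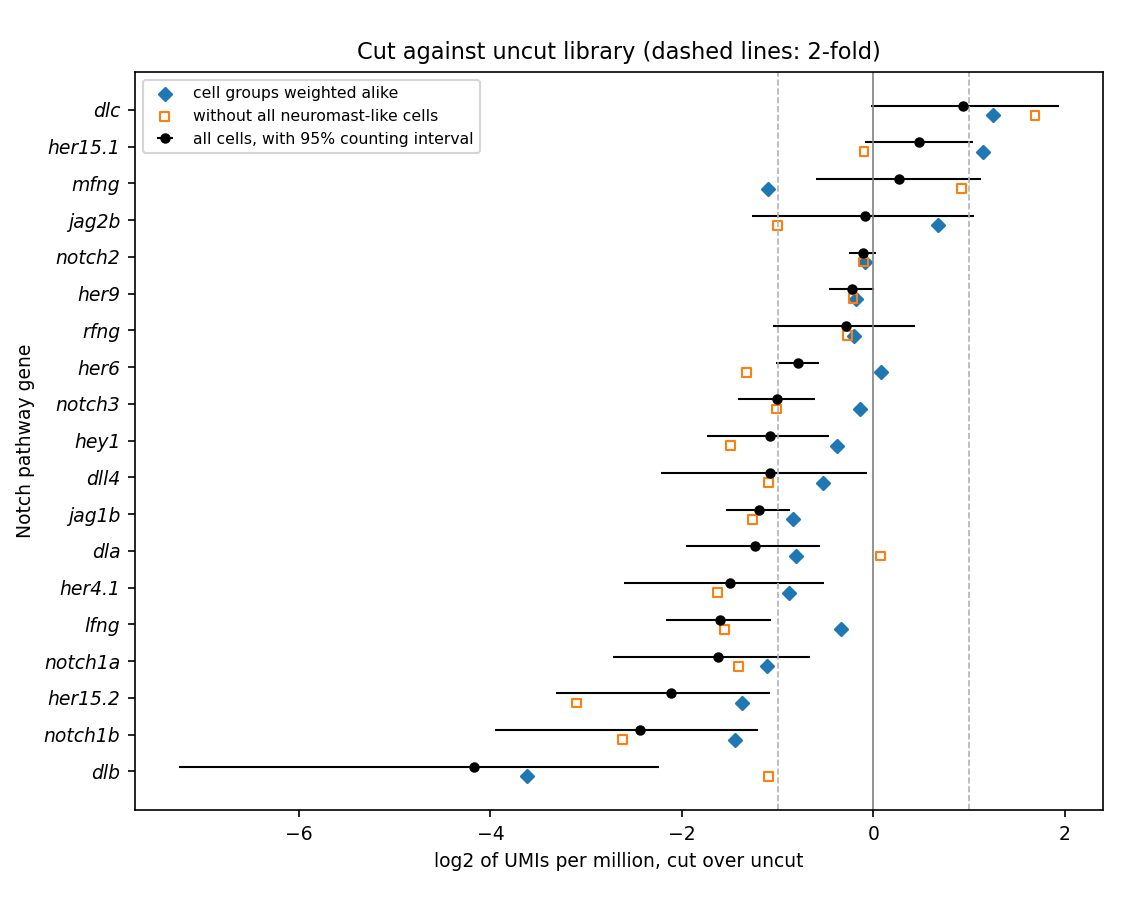
Log2 ratio of cut over uncut for the 19 Notch pathway genes over all cells, with the 95% interval for counting error, and the ratio with every cell group given the same weight in both libraries. Of the 19 genes, 11 lie at least 2-fold below 0 over all cells and 5 do so with the groups weighted alike.

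The ligands and receptors with the largest gaps were rare genes. The level of dlb was 0.271 CPM in cut and 4.88 in uncut, from 2 and 51 UMIs, a log2 ratio of -4.17 (95% interval -7.25 to -2.24). For notch1b the levels were 0.813 and 4.398 (log2 ratio -2.44) and for notch1a 1.49 and 4.59 (-1.62). The better counted genes gave smaller gaps with narrower intervals. The level of jag1b was 13.3 in cut and 30.5 in uncut (-1.20, -1.54 to -0.87), and that of notch3 was 9.76 and 19.6 (-1.01, -1.41 to -0.61). The values for dla were 3.25 and 7.65 (-1.23) and for dll4 1.49 and 3.16 (-1.08).

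Lunatic fringe, lfng, stood at 4.88 CPM in cut and 14.8 in uncut (log2 ratio -1.60, -2.17 to -1.07). The targets her15.2, her4.1 and hey1 were lower in cut, with log2 ratios of -2.11, -1.50 and -1.08, and her6 missed the 2-fold limit at 31.5 in cut and 54.2 in uncut (-0.79). The neighbouring copy of her15.2, her15.1, stood at 7.46 in cut and 5.36 in uncut (0.48). The split of reads between these copies is uncertain, and so is the call of her15.2 as lower. Of the other well counted members, notch2 was at -0.11 (-0.26 to 0.03) and her9 at -0.22, and rfng (-0.29) and the sparse jag2b (-0.08) were also under the limit. The genes above 0 were mfng (0.27), her15.1 and dlc (0.94).

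These values moved with the cells each library held. Mesenchyme-like, apical epithelial cap-like and neuromast-like cells, all with higher levels of notch3, jag1b, lfng and her6 than superficial epidermis-like cells, were smaller shares of the cut than of the uncut library, although the intervals of the neuromast-like shares overlap. The unnamed cluster of 189 cells, at 117 CPM of all Notch pathway genes together, was a larger share of the cut library. With each cell group given the same weight in both libraries, 5 of 19 genes were at least 2-fold lower in cut, against 1.57% of all genes (dlb -3.61, notch1b -1.45, her15.2 -1.37, notch1a -1.11 and mfng -1.10) and 2 were at least 2-fold higher, against 3.17% (dlc 1.25 and her15.1 1.15). Of these 5 lower genes, dlb, notch1b, her15.2 and notch1a were among those that reached the minimum through their uncut UMIs. The median log2 ratio was then -0.37, against 0.12 for all genes. The ratios of lfng (-0.34), notch3 (-0.14) and hey1 (-0.37) came close to 0, and her6 was at 0.09, while jag1b stayed at -0.84. Whether there were fewer cells of a type in the cut fin folds or fewer were recovered cannot be told apart.

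The 59 neuromast-like cells weighed on some of these genes more than on others. Without all neuromast-like cells dla had a log2 ratio of 0.07 in place of -1.23, and of the 14 genes that still had at least 30 UMIs, 8 were at least 2-fold lower (8.83% of all genes) and 1 was higher (3.06%). The 8 lower genes included her6, which went from -0.79 over all cells to -1.33, and the median log2 ratio of the 14 genes was -1.05. Without only the deepest neuromast-like cell, the counts were 7 and 1 of 18 (8.42% and 3.01% of all genes).

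Within neuromast-like cells, 11 Notch pathway genes had at least 30 UMIs. Of these, 3 were at least 2-fold lower in cut (background 5.39% of 1984 genes) and 2 were at least 2-fold higher (background 4.28%). The lower genes were the ligands dla and dlb and the target her15.2, and the higher genes were the targets her6 and her15.1. The minimum was taken over both libraries together. The 3 lower genes reached it through their uncut UMIs (her15.2 had 8 in cut and 43 in uncut), so their calls were partly set by the filter. The split of reads between the her15 copies is uncertain. As a sum these copies stood at 387 CPM in cut and 281 in uncut neuromast-like cells, under the 2-fold limit. In the cut cells dla had 6 UMIs in 2 of 23 cells, and in the uncut cells it had 56 UMIs in 8 of 36 cells (log2 ratio -2.10, 95% interval -3.61 to -0.89). No UMI of dlb was found in the 23 cut cells, which allows a share of cells with a UMI of up to 13.04% by the same limit, against 45 UMIs in 7 of 36 uncut cells, a level at least 6.89-fold higher in uncut. Summed over the Delta ligands, a UMI was found in 2 of 23 cut cells and 11 of 36 uncut cells. These counts include the neuron-like cells of the finer clustering, which held 11 UMIs of dlb in 1 cell and 9 of dla in 2 cells.

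The other genes of the neuromast-like cells were near equal or rested on single cells. The values of her6 were 98 UMIs in cut and 96 in uncut, a log2 ratio of 1.15 at the depth of these cells (0.73 to 1.57), but 42 of the 98 cut UMIs came from 1 cell. Without the top cell of each library the ratio was 0.55, and for her15.1, with 26 of 49 cut UMIs in 1 cell, it went from 1.18 to 0.65. The log2 ratios of notch3 (-0.41), jag1b (-0.40), her4.1 (-0.37), hey1 (0.24), her9 (0.12) and notch2 (-0.18) stayed under the 2-fold limit. As a sum, the her4, her15, her12 and her2 genes stood at 557 CPM in cut and 446 in uncut neuromast-like cells, and the Jagged ligands at 204 and 209. The Delta ligands stood at 40.8 in cut and 374 in uncut, or 244 in uncut without the deepest cell, which held 56 of their 120 uncut UMIs. The fringes were lower in cut as well, at 20.4 against 93.6, from 3 and 30 UMIs, and notch1a was at 27.2 against 68.6.

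In the neuromast-like cells the Delta gap moved together with atoh1a and with depth. Of the 56 atoh1a UMIs of the series, 53 were in uncut neuromast-like cells and 0 in the 23 cut ones, a level at least 8.11-fold higher in uncut. The median depth in this group was 4894 UMIs in cut and 5761 in uncut, and among cells without atoh1a, 7 cut and 12 uncut cells had at least 6000 UMIs. The deepest cell weighs on all of this. Without it dla stayed at least 2-fold lower in cut (log2 ratio -1.97), as did her15.2, but dlb had 19 UMIs, under the minimum of 30, and the uncut levels of dlb and of atoh1a were each at least 3.55-fold higher than in cut.

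Within mesenchyme-like cells, 6 Notch pathway genes had at least 30 UMIs, of which 1 was at least 2-fold lower in cut (background 4.47% of 5080 genes) and 0 were at least 2-fold higher (background 5.73%). The lower gene was jag1b, with 6 UMIs in 90 cut cells and 67 in 262 uncut cells (log2 ratio -1.28, 95% interval -2.78 to -0.09). The level of lfng, which was among the lower genes over all cells, was 40.0 CPM in cut and 40.3 in uncut mesenchyme-like cells. The log2 ratios of her6 (-0.26), notch3 (-0.12), notch2 (0.03) and her9 (0.36) lay around the median of all genes in these cells, 0.16. The count depended on how the mesenchyme-like cells were drawn. At Leiden resolution 0.5 it was 5 of 10 genes lower in cut (dla, notch1b, jag1b, hey1 and dll4, background 3.06%), and at resolution 2 it was 5 of 9 (notch1b, notch3, jag1b, hey1 and dll4, background 3.5%). With the Notch pathway genes kept in the clustering it was 3 of 7 (notch3, jag1b and hey1, background 4.52%), and jag1b was lower under each of these.

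In the apical epithelial cap-like cells, 5 Notch pathway genes had at least 30 UMIs, of which 0 were at least 2-fold lower in cut (background 4.51%) and 1 was higher (background 10.9%). This was her9, at 55.8 CPM in cut and 26.2 in uncut (log2 ratio 1.09, 0.37 to 1.80). The cluster rich in her9 made up 14 of the 40 cut and 22 of the 114 uncut cells, and within it the log2 ratio was 0.19 (-0.71 to 1.06), while in the other cluster it was 1.53 from 11 and 12 UMIs. In the same cells jag1b was at -0.91 (-1.85 to -0.07), notch3 at 0.53, her6 at -0.60 and notch2 at 0.01. In superficial epidermis-like cells 0 of 3 genes were at least 2-fold lower or higher (background 1.95% and 2.02%), with her9 at -0.47, jag1b at -0.45 and notch2 at -0.16. In myeloid-like cells 0 of 2 were (background 2.8% and 20.1%), with mfng at -0.76 and notch2 at -0.10. The log2 ratio of jag1b was below 0 in all 4 named cell groups in which it had at least 30 UMIs. The unnamed clusters were left out of these comparisons, and the largest of them held 34 UMIs of jag1b.

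The other genes of the pathway, taken from lists of 62 names of which 51 were in the files, stood nearer to the background than the ligands, receptors and targets did. Of 29 with at least 30 UMIs, 4 were at least 2-fold lower in cut and 0 higher, against 8.64% and 2.99% of all genes. The genes that process the receptor, among them the protease adam10a and the gamma-secretase subunits psenen and aph1b, gave 0 of 11 in either direction and a median log2 ratio of 0.10. Of the nuclear complex and its co-repressors, ctbp2a (-1.28) and tle2a (-1.09) were lower, 2 of 10, and both came to -0.23 and 0.10 with the groups weighted alike. The inhibitors, among them the feedback genes nrarpa and nrarpb, gave 0 of 6. Of the proneural factors, 2 had enough UMIs, and both were lower in cut, atoh1a (-4.25) and hes6 (-1.33), which came to -3.65 and -0.56 with the groups weighted alike.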

How the data were processed

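Per the submitters' processing notes and the methods, the authors counted UMIs per gene and cell barcode with Cell Ranger 3.1.0 on danRer11 and joined both libraries in an aggregated table that keeps 95.3% of the cut UMIs. The annotation is not given in the sources used here. The deposited values are whole UMI counts, from 7376980 UMIs in cut and 10458222 in uncut, so 3 UMIs are 0.407 and 0.287 counts per 1000000 (CPM). The methods aimed at 4000 cells per library, and 762 and 878 barcodes are in the tables. All were used, and no doublet caller was run. Levels came from the separate tables. Cells were clustered on the aggregated table (log2 of scaled counts plus 1, 13095 genes, 15 components, 15 neighbours, Leiden resolution 1) without 90 Notch pathway genes. A cluster needed at least 3 markers, and at least 1 in 3 of those listed, to take a name. Each had to be raised by a log2 ratio of 0.5 and found in 25% of cells, a limit set after the data were seen. A cluster that met this could still stay unnamed because of its 10 leading genes or low depth. This held for the unnamed clusters of 189 and 24 cells, with 6 and 4 of 12 superficial epidermis markers raised. Ratios have exact binomial and levels exact Poisson intervals. All genes of the name rule may be named, and values are given in full from 30 UMIs. The genes and lists were chosen with earlier results of these data known. The procedure was tested on simulated counts. Alternatives changed the table, minimum count, fold limit, cells, clustering and group weights. Python 3.11.15, scipy 1.17.1, scanpy 1.11.5 and python-igraph 0.11.9 were used.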

Additional observations from a re-analysis of the deposited data

Results flagged for a closer look

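The difference between cut and uncut in her9 was not alike in the epithelium. Its log2 ratio of cut over uncut was 1.09 in apical epithelial cap-like cells and -0.47 in superficial epidermis-like cells, 1.56 apart and of opposite sign. With 1 library per condition this difference was not tested. The apical epithelial cap-like value moves with the share of the her9-rich cluster, 14 of 40 cut against 22 of 114 uncut cells, and the part of that share in the result was not tested.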

How the results depend on the processing

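The count of 11 Notch pathway genes at least 2-fold lower in cut, of 19 tested, was 5 of 9 at a minimum of 100 UMIs (background 6.49%), 5 of 19 with cell groups weighted alike and 7 of 18 without the deepest neuromast-like cell. The count of 0 higher was 1 at a 1.5-fold limit, 1 without the top cell of each gene, 1 without the 2% of cells with the most UMIs, 1 without the deepest neuromast-like cell, 1 without all neuromast-like cells and 2 with groups weighted alike. The log2 ratio of dla turned to 0.0727 without the neuromast-like cells. Summed over cell groups, 4 calls lower became 9 at Leiden resolution 0.5 and 10 at resolution 2, of which mesenchyme-like cells gave 5 each, and 3 higher became 5 at resolution 2 and 1 without the top cell of each gene. In neuromast-like cells the 2 higher became 0 without that top cell and 1 without the deepest cell. Thinned to 2000 UMIs, the shares of neuromast-like cells went from 40.7% to 26.3% (her4, her15, her12 or her2), 45.8% to 29.8% (notch3) and 49.2% to 24.6% (jag1b). The 14 genes highest in neuromast-like cells were 9 at resolution 2. The cause was not tested. Of 133 values for single genes, 121 moved little, 11 moved more and 1 was counted as turned. This count leaves out other changes of sign. With groups weighted alike, the log2 ratio of her6 went from -0.79 to 0.09, of jag2b from -0.08 to 0.68 and of mfng from 0.27 to -1.10. That of her15.1 went from 0.48 to -0.097 without the neuromast-like cells. No paired analysis was possible because there is 1 library per condition. A gene with a few UMIs in 23 cut neuromast-like cells cannot be told from one at 0 at this depth.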

Other observations

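Several other Notch pathway components had higher values in neuromast-like cells, though few by 4-fold. The feedback inhibitor nrarpa stood at 89.8 CPM there and 26.8 in all other cells, and hes6, a relative of the Hes repressors, at 57.7 and 6.33. The DNA-binding partner rbpjb stood at 51.3 and 21.5, the co-repressor deacetylase hdac1 at 312 and 141 and the receptor-modifying enzyme pofut1 at 38.5 and 13.4. Of the 29 other pathway genes with at least 30 UMIs, 3 (hes6, nrarpb and neurl1aa, an enzyme that helps ligand uptake) were at least 4-fold higher in the neuromast-like cells of both libraries, against 5.31% of all genes. These calls rest on few UMIs. In cut neuromast-like cells nrarpb stood at 20.4 CPM, the level of 3 UMIs, and hes6 and neurl1aa at 27.2 each. The highest group for neurl1aa was muscle-like, at 38.4 against 29.9 in neuromast-like cells.

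The cycling cluster, which no marker list named, carried several members at levels above those of most groups. In its 52 cells, of which 84.6% had a UMI of a cycling gene, her6 stood at 142 CPM, notch3 at 72.1, lfng at 35.4, hey1 at 26.6 and notch1b at 22.8. The jagunal gene jagn1b, taken by the name rule, had 660 UMIs and a log2 ratio of cut over uncut of 0.07.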
